A study of Homo sapiens with 6 samples.

Results

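The genes described here are 10 transcription regulators of plasma cells and B cells, namely IRF4, PRDM1, IKZF1, IKZF3, POU2AF1, PAX5, EBF1, SPIB, IRF8 and BCL6. They were taken by symbol from the table that pairs the array's probe sets with genes, with every probe set kept. All 10 were measured, of 18132 genes in all, by 35 of the 49293 probe sets that are not array controls. The number of probe sets a gene ranged from 1, for POU2AF1 and SPIB, to 10, for PAX5.

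As background, B cells and plasma cells are held in their states by factors that repress one another. PAX5, EBF1 and SPIB support the B cell program, and BCL6 and IRF8 act in germinal centre B cells. When a B cell becomes a plasma cell, IRF4 and PRDM1 take over, and BLIMP-1, the repressor encoded by PRDM1, shuts down PAX5 and BCL6. Myeloma is a cancer of plasma cells, and myeloma cells depend on IRF4. IKZF1 and IKZF3 encode Ikaros and Aiolos, the zinc finger proteins that lenalidomide makes the cereblon ubiquitin ligase degrade. PRMT5, an enzyme that dimethylates arginines symmetrically, was reported to work with BLIMP-1 in mouse germ cells and to bind BCL6 in human lymphoma cells.

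The 3 PRMT5_down arrays carried RNA of cells labelled NCI-H929 with a lentivirus that lowers PRMT5, and the 3 control arrays RNA of cells with the same label and a control lentivirus. NCI-H929 is a human multiple myeloma line. Both groups were grown in the same medium and collected together, and the protocol describes puromycin selection of transduced cells, where the design text speaks of sorting. The titles call both vectors sponges, whereas the protocol names an shRNA in a pLKO.1 vector, the protocol calls the controls normal cells, and nothing says whether replicates were separate transductions. Every p-value thus rests on how far these arrays lie apart, and that spread may be only technical. The values are log2 signals made by RMA, a method that puts all arrays on one distribution and gives 1 value a probe set, so a shift common to most genes is removed.

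PRMT5 had log2 signals of 8.63, 9.65 and 9.37 in PRMT5_down replicates 1, 2 and 3, against 9.93, 10.35 and 10.30 in control replicates 1, 2 and 3. The groups did not overlap. An exact two-sided permutation test returned p = 0.1, a value that cannot be lower with 3 arrays a group. Array medians lay between 5.29 and 5.31. Background was set on each array as the 95th percentile of 368 probe sets of olfactory receptor genes, which blood cells hardly use, and lay between 4.88 and 5.03. Each probe set was set against background only, because probes differ in brightness. In bulk RNA, fewer cells of a type and less RNA per cell cannot be told apart.

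Most of the 10 regulators were at or under background, in both groups. By their brightest probe set, 4 of 10 (40.0%) lay above it on all 6 arrays, namely PRDM1, IKZF1, PAX5 and BCL6, against 56.5% of all genes. The other 6, namely IRF4, IKZF3, POU2AF1, SPIB, IRF8 and EBF1, lay under it on all 6. Over probe sets, 13 of 35 were above on every array, 21 on none, and 1, of PRDM1, on 2 of 6. Among all probe sets 50.7% were above background on every array and 42.1% on none. PRDM1 was no longer above with the stricter 99th percentile of olfactory receptors, with keratin-associated protein and taste receptor genes as background, or by the mean of its probe sets, and 3 members were left under each. The 99th percentile lay between 6.71 and 6.92 over the 6 arrays, and the keratin and taste receptor level between 6.55 and 6.94. Both are called the higher backgrounds below, and background alone means the 95th percentile of olfactory receptors.

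**Figure D1:**
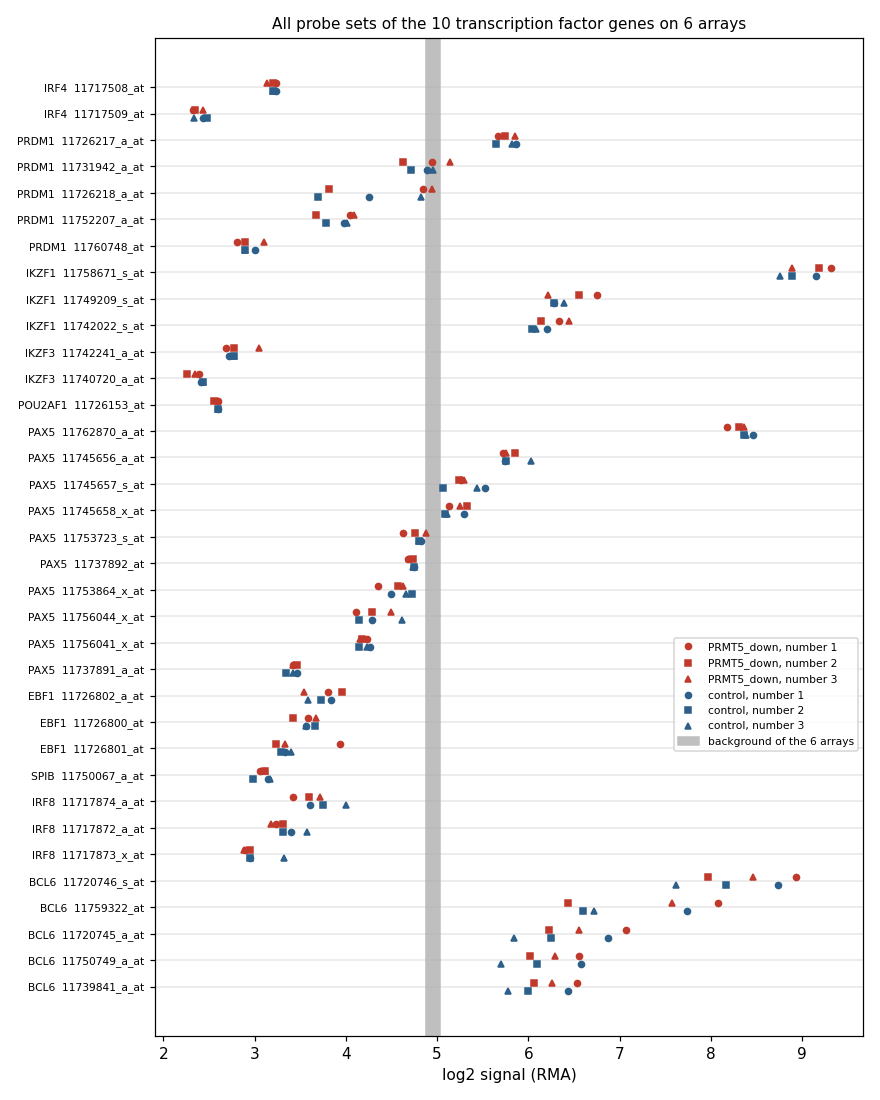
Log2 signal (x axis) of all 35 probe sets of the 10 regulators (rows), with PRMT5_down arrays in red above control arrays in blue and a marker shape for each replicate number. The grey band spans the background of the 6 arrays, 4.88 to 5.03: every probe set of IRF4, IKZF3, POU2AF1, EBF1, SPIB and IRF8 lies left of it, every one of IKZF1 and BCL6 right of it, and those of PAX5 and PRDM1 on both sides.

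IRF4, the regulator on which myeloma cells depend, gave no signal above background. Its brightest probe set read 3.24, 3.20 and 3.14 in PRMT5_down replicates 1, 2 and 3, against 3.23, 3.20 and 3.20 in control replicates 1, 2 and 3. Relative to the background of their array the 6 values lay between -1.83 and -1.67 log2 units, and the groups overlapped. The other IRF4 probe set lay between 2.33 and 2.48 over the 6 arrays. The window around its annotated start in RefSeq is shown because the gene was listed under background on all arrays. It covers 250 bases before and 50 from the start on, on the plus strand of GRCh38.p14, chr6:391502-391801, and holds none of the motifs searched, which are given with BCL6 below.
IRF4: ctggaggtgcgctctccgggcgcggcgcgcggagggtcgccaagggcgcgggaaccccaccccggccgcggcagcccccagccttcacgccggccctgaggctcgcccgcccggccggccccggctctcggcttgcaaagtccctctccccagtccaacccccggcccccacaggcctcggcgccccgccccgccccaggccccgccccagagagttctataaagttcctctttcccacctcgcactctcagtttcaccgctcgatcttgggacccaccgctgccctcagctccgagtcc

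POU2AF1, the coactivator that joins octamer-binding proteins on immunoglobulin promoters, was also under background on all 6 arrays. Its only probe set read 2.60, 2.56 and 2.60 in PRMT5_down replicates 1, 2 and 3, against 2.60 in each control replicate. The 6 values differed by no more than 0.04, and relative to background they lay between -2.43 and -2.29. A single probe set at the bottom of the scale cannot tell a silent gene from a poor probe.

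IKZF1 and IKZF3 stood on opposite sides of background. The brightest IKZF1 probe set read 9.32, 9.19 and 8.89 in PRMT5_down replicates 1, 2 and 3, against 9.15, 8.89 and 8.76 in control replicates 1, 2 and 3. Each PRMT5_down array was above the control of its number, but the groups overlapped. The other 2 IKZF1 probe sets, 11749209_s_at and 11742022_s_at, were also above background on all 6 arrays, but under the higher backgrounds on some or all. They read 6.75, 6.56 and 6.22 and 6.34, 6.14 and 6.45 in PRMT5_down, against 6.28, 6.28 and 6.39 and 6.20, 6.04 and 6.08 in control. IKZF3, which encodes the Ikaros relative Aiolos, had its brighter probe set at 2.69, 2.78 and 3.05 in PRMT5_down replicates 1, 2 and 3, against 2.72, 2.78 and 2.78 in control replicates 1, 2 and 3. The dimmer one lay between 2.26 and 2.44, and both stood under background on all 6 arrays.

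The IKZF1 entry in RefSeq has 3 start windows, and the one at chr7:50318798-50319097, plus strand, is shown because the gene was above background with all its probe sets and this window holds AGATAA, the letters of the core that GATA factors bind. Capitals mark AGATAA on either strand, which begins at positions -106, -72 and -2 from the annotated start. The match at -2 runs across that start. Just before the start, a run of c and t that ends in AG has the letters of a splice acceptor, the edge of an exon. Whether transcription begins there was not tested. The same letters occur in 10.3% of 35116 such windows, and 3 or more times in 0.0598%. The other IKZF1 windows hold none. As this window was chosen for its matches, the shares do not measure how unusual it is.
IKZF1: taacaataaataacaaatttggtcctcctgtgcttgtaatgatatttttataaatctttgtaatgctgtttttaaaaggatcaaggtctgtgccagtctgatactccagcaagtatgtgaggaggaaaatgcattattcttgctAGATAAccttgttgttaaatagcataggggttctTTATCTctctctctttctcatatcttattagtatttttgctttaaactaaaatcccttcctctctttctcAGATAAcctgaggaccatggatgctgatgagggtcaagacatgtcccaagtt

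PRDM1 was near background, and its 5 probe sets disagreed. The brightest, 11726217_a_at, read 5.67, 5.75 and 5.85 in PRMT5_down replicates 1, 2 and 3, against 5.86, 5.65 and 5.82 in control replicates 1, 2 and 3. These were 0.76 to 0.90 above background, with no separation of the groups. The most variable, 11726218_a_at, read 4.85, 3.82 and 4.95 in PRMT5_down replicates 1, 2 and 3, against 4.25, 3.70 and 4.82 in control replicates 1, 2 and 3. Replicate number 2 was the lowest in both groups, and none of the 6 values exceeded background. Probe set 11731942_a_at, at 4.63 to 5.14, crossed background on 2 arrays, while 11752207_a_at and 11760748_at stayed under it on all.

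The 10 PAX5 probe sets disagreed on whether the gene was above background. Its brightest, 11762870_a_at, read 8.18, 8.31 and 8.36 in PRMT5_down replicates 1, 2 and 3, against 8.46, 8.36 and 8.38 in control replicates 1, 2 and 3. The values sat 3.27 to 3.50 above background, and the groups met at 8.36. Of the other 9 PAX5 probe sets, 3 were above background on all 6 arrays, by 0.08 to 1.00, and 6 were under it on all 6. Their means over the 6 arrays were between 3.42 and 5.81, against 8.34 for the brightest. Probe sets 11737891_a_at and 11737892_at, both at or under 4.75, were among the 6. Whether 11762870_a_at reads PAX5 transcripts was not tested, so the call of PAX5 as above background rests largely on a probe set that the others do not match.

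EBF1, SPIB and IRF8, which support the B cell program, were under background with every probe set. The 3 EBF1 probe sets ranged from 3.24 to 3.96 over the 6 arrays and the SPIB probe set from 2.98 to 3.17. The brightest IRF8 probe set read 3.42, 3.60 and 3.72 in PRMT5_down replicates 1, 2 and 3, against 3.61, 3.75 and 4.0 in control replicates 1, 2 and 3. Each PRMT5_down value was under its control, while the groups overlapped. The other 2 IRF8 probe sets lay between 2.88 and 3.57.

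BCL6, the germinal centre repressor, was above background with all 5 probe sets on all 6 arrays, and its brightest probe set spread wider over the arrays than those of the other members above background. The brightest, 11720746_s_at, read 8.93, 7.97 and 8.46 in PRMT5_down replicates 1, 2 and 3, against 8.74, 8.17 and 7.62 in control replicates 1, 2 and 3. Probe set 11759322_at read 8.08, 6.43 and 7.57 in PRMT5_down, against 7.74, 6.60 and 6.72 in control. In both groups and all 5 probe sets, replicate 1 was the highest, and the groups overlapped in every one. Probe sets 11720745_a_at, 11750749_a_at and 11739841_a_at ranged over 5.84 to 7.07, 5.70 to 6.58 and 5.78 to 6.53. With the higher backgrounds only the brightest BCL6 probe set stayed above on all 6 arrays.

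**Figure D2:**
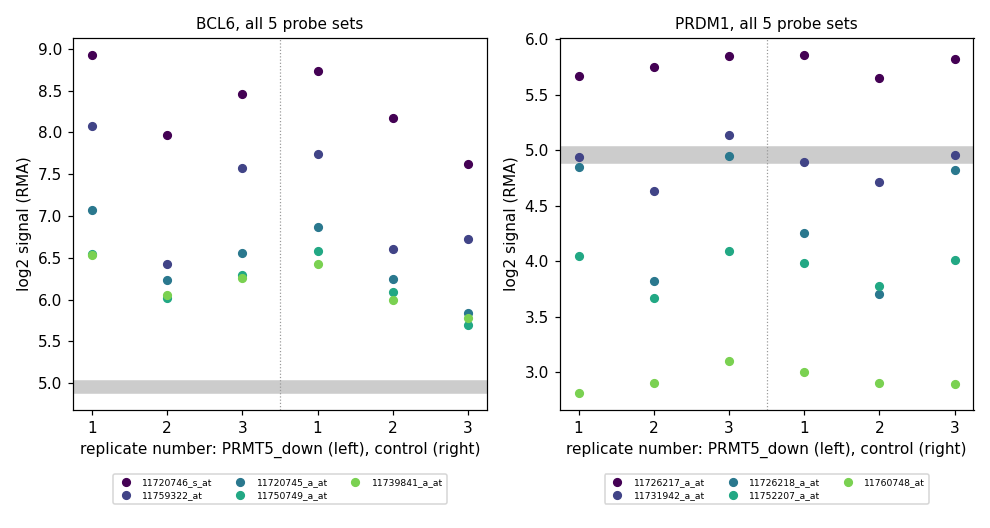
Log2 signal (y axis) of the 5 probe sets of BCL6 (left) and of PRDM1 (right) on each array, with PRMT5_down replicates left of the dotted line and control replicates right of it, 1 colour a probe set and background in grey. All BCL6 points lie above the band with replicate 1 highest in both groups (8.93 in PRMT5_down and 8.74 in control for the brightest), whereas PRDM1 probe sets lie above, across and below it.

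Human BCL6 is known to repress its own gene through sites near its start, which is why that window is shown. It lies on the minus strand at chr3:187745419-187745718 of GRCh38.p14, 250 bases before the start and 50 from it on. Capitals mark TTCNNNGAA, the letters shared by BCL6 and STAT sites, which reads the same on both strands. It occurs 4 times there, beginning at positions -28, -5, 11 and 37 from the start, counted without a zero.
BCL6: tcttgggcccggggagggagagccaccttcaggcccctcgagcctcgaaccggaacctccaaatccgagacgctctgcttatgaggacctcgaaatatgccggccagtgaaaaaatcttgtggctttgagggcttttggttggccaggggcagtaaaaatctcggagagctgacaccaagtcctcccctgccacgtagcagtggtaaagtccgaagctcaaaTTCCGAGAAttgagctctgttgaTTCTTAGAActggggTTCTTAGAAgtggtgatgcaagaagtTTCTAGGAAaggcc
At least 1 match is found in 7.66% of all 35116 windows, and 4 or more in 0.0199%, or 7 windows, some of which may overlap. The other BCL6 window in RefSeq, at chr3:187736452-187736751, holds none. As the window shown was chosen for its known sites, these shares do not measure how unusual it is. Also searched, on both strands, were AGATAA, the octamer ATGCAAAT and the composite element at which ETS and IRF proteins bind together. Of 13 windows found for 8 members, TTCNNNGAA was in 1, AGATAA in 1, the composite element in 1, of EBF1, and ATGCAAAT in 0, against 1.77% of all windows for the octamer and 2.82% for the composite element. IKZF3 and POU2AF1 had no window in the table. A match is a run of letters and says nothing about binding in these cells.

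None of the 10 regulators passed the test between PRMT5_down and control. At an adjusted p under 0.05, limma called 0 of 35 member probe sets and 0 of all 49293 (0.0%). At an unadjusted p under 0.05 limma had 0 of 35, against 466 of all, or 0.945%. Of the 35, 17 were higher and 18 lower in PRMT5_down, with a median log2 difference of -0.01 against -0.01 over all probe sets. With the replicate number as a block, limma again called 0 of 35 and 0 of all, and 3 of 35 had an unadjusted p under 0.05, or 8.57%, against 8.56% of all. Of these 3, the brightest of IKZF1 and 11726218_a_at of PRDM1 were higher in PRMT5_down, where 5.08% of all were, and the brightest of IRF8 was lower, where 3.48% of all were. With trend and robust variances added to the block, limma called 0 of 35 and 6 of all (0.0122%). PRMT5, the targeted gene, differed by -0.98 (SE 0.28) and was among these 6. It was not called as planned or with the block alone (limma adjusted p = 0.26 with the block). Those fits could thus miss a difference of that size.

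Among the brightest probe sets of the members the largest mean difference was that of BCL6, and in each BCL6 probe set the difference was widest in replicate number 3. All 5 BCL6 probe sets had a higher mean in PRMT5_down, by 0.16 to 0.34 log2 units. For the brightest the means were 8.45 ± 0.48 in PRMT5_down and 8.18 ± 0.56 in control (SD, n = 3 each), a difference of 0.28 (SE 0.35, limma adjusted p = 1). Within replicate numbers 1, 2 and 3 it differed by 0.19, -0.20 and 0.84. Over the 5 probe sets the difference was -0.03 to 0.34 in number 1, -0.20 to 0.06 in number 2 and 0.48 to 0.85 in number 3. Without control replicate 3 the mean difference of the brightest was -0.0017. The 95% interval of that probe set in the planned fit reached from -0.58 to 1.13, which includes 1 log2 unit. With the replicate block the interval was -0.12 to 0.67, which does not, and limma gave an adjusted p of 0.67.

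IKZF1 had small differences of one sign in its 3 probe sets, 0.20, 0.19 and 0.20 log2 units, with means of 9.13 ± 0.22 in PRMT5_down and 8.93 ± 0.20 in control for the brightest (SD, n = 3 each). Within replicate numbers the brightest differed by 0.17, 0.30 and 0.13, and over the 3 probe sets 8 of 9 such differences were positive. It did not pass (SE 0.16, limma adjusted p = 1), and its 95% interval was -0.18 to 0.58. With the replicate block the SE was 0.08, the 95% interval 0.007 to 0.39 and the unadjusted limma p 0.044 (adjusted p = 0.57).

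The brightest IRF8 probe set, under background throughout, differed by -0.21 (SE 0.14), with -0.19, -0.15 and -0.28 in replicate numbers 1, 2 and 3, and missed in limma as planned (adjusted p = 1) and with the replicate block (adjusted p = 0.56). PAX5 differed by -0.12 (SE 0.09) in its brightest probe set, with -0.28, -0.05 and -0.02 in replicate numbers 1, 2 and 3. Over all 10 PAX5 probe sets 8 were lower, and the differences ran from -0.12 to 0.07. The other brightest probe sets differed by -0.02 for IRF4 (SE 0.08), -0.02 for PRDM1 (SE 0.10), 0.08 for IKZF3 (SE 0.11), -0.01 for POU2AF1 (SE 0.07), -0.01 for SPIB (SE 0.09) and 0.05 for EBF1 (SE 0.14). PRDM1 probe set 11726218_a_at differed by 0.28 (SE 0.40), of which 0.60 in replicate number 1, with a blocked limma adjusted p of 0.57.

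**Figure D3:**
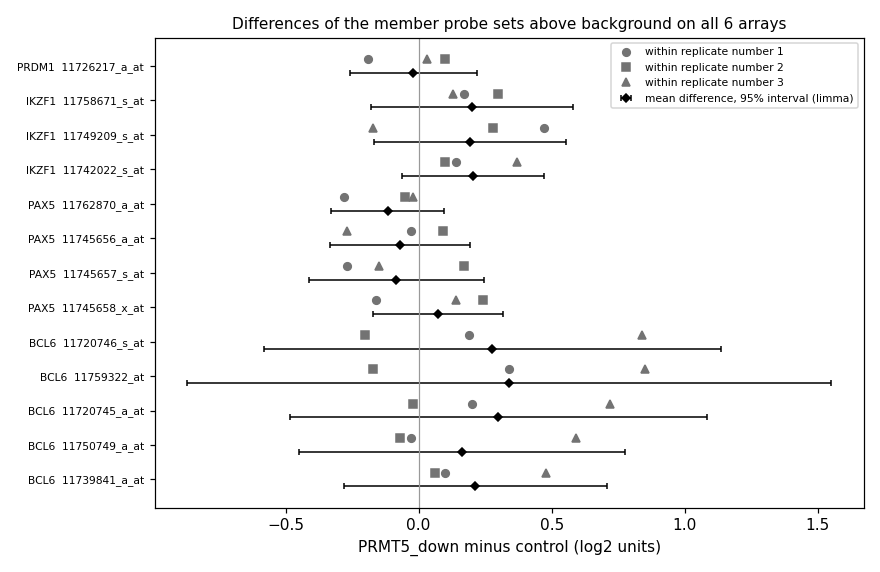
Log2 difference, PRMT5_down minus control (x axis), for the 13 member probe sets above background on all 6 arrays (rows). Grey markers are the differences within each replicate number. Black diamonds are the mean difference with its 95% limma interval from the planned fit, without the replicate block. Every interval shown includes 0, and the triangle of replicate number 3 is the rightmost marker in all 5 BCL6 rows. With the block, not shown, the interval of the brightest IKZF1 probe set was 0.007 to 0.39.

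The difference had one sign in all 3 replicate numbers for 9 member probe sets. Of the 35, 4 were higher in all 3, or 11.4% against 12.5% of all probe sets, and 5 were lower in all 3, or 14.3% against 14.3%. The groups failed to overlap for 1 of 35, the IKZF3 probe set 11740720_a_at, where 3.93% of all probe sets did so. It read 2.39, 2.26 and 2.35 in PRMT5_down replicates 1, 2 and 3, against 2.41, 2.43 and 2.44 in control replicates 1, 2 and 3, all far under background. In the two-sided exact permutation test of single probe sets the brightest of each member gave p from 0.2 to 1. That test ignores the replicate numbers, and its paired form cannot go under 0.25. The planned fit has no replicate block. In it the 95% interval of the brightest probe set lay within 1 log2 unit of 0 for 9 of the 10 members. BCL6 was the exception, and with the block its interval, -0.12 to 0.67, lay within 1 unit too. Over all member probe sets the planned interval lay within 1 unit for 31 of 35. PRDM1 probe set 11726218_a_at, at -0.69 to 1.26, was among the others. Of the 9 members, 6 were under background on all 6 arrays, where a narrow interval does not bound a change of the gene.

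Some members differed between replicate numbers. In a limma F test of the replicate number with the vector as a term, chosen after the values were seen, 7 of 35 member probe sets had an adjusted p under 0.05, or 20.0%, against 33.5% of all probe sets. At an unadjusted p under 0.05 there were 11 of 35, against 42.7% of all. The 7 were all 5 of BCL6, the brightest of IKZF1 and 11726218_a_at of PRDM1. For the brightest BCL6 probe set, the means of replicate numbers 1, 2 and 3 were 8.84, 8.07 and 8.04 (limma adjusted p = 0.031). Its range of 0.80 compares with a median of 0.46 over probe sets above background on all arrays. The PRDM1 probe set averaged 4.55, 3.76 and 4.89 (limma adjusted p = 0.0022). The labels do not say what a replicate number shares.

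The genes that work with these regulators were largely above background, and limma called 0 of them in any list, as planned or with the replicate block. Among the other Ikaros family genes, 2 of 3 were above background on all 6 arrays, with IKZF4 at 7.27 in PRMT5_down and 7.18 in control, IKZF5 at 6.38 in PRMT5_down and 6.27 in control, and IKZF2 under it. All 6 other interferon regulatory factors measured were above background, 3 with a higher and 2 with a lower mean beside IRF3, which was equal. Of these IRF2 differed by 0.23 (SE 0.23), with 0.13, 0.11 and 0.46 in replicate numbers 1, 2 and 3. All 16 partner factors measured were above background as well, with a median difference of -0.04. Among them, ID2, an inhibitor of E proteins, differed by 0.31 (SE 0.30), the class II transactivator CIITA by -0.11 (SE 0.12), the B cell repressor BACH2 by 0.24 (SE 0.32) and MEF2C by 0.19 (SE 0.27). MYC, which BLIMP-1 represses, had a mean of 11.21 in each group. With the higher backgrounds some of the genes in these lists, among them IKZF4, IKZF5, BACH2 and CIITA, were not above on all 6 arrays.

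The cereblon ligase, through which lenalidomide acts on Ikaros and Aiolos, had all 5 genes above background. CRBN, its substrate receptor, averaged 8.58 in PRMT5_down and 8.69 in control, a difference of -0.12 (SE 0.17), and the scaffold CUL4B differed by 0.15 (SE 0.11). The median of the 5 was 0.07. The 12 corepressor genes measured, among them partners of BCL6, BLIMP-1 and Ikaros, were all above background with a median difference of 0.00. BCOR, a BCL6 corepressor, differed by 0.09 (SE 0.10), TLE4 by 0.07 (SE 0.09) and CTBP1 by -0.13 (SE 0.19). TLE4 and SIN3A were not above the higher backgrounds on all 6 arrays.

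The lineage markers of the arrays went against the label NCI-H929 at several points. Of 10 plasma cell markers 5 were above background on all 6 arrays and 4 on none. With the higher backgrounds XBP1 alone of the 10 was above on all 6. XBP1, the secretory regulator, averaged 10.40 in PRMT5_down and 10.46 in control, and TNFRSF13B 6.58 in PRMT5_down and 6.65 in control. The syndecan gene SDC1, whose protein CD138 defines plasma cells, was 0.08 above background on its lowest array and averaged 5.11 in PRMT5_down and 5.35 in control, without overlap of the groups (limma adjusted p = 1). CD38 averaged 2.59 in PRMT5_down and 2.63 in control, and TNFRSF17, which encodes BCMA, 2.42 in PRMT5_down and 2.52 in control, both under background on all 6.

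Of 9 measured B cell markers, 2 were above background on all 6 arrays, CD79A at 6.19 in PRMT5_down and 6.28 in control and CD22 at 6.14 in PRMT5_down and 6.25 in control. MS4A1, which encodes CD20, CD72 and BLNK, an adaptor of the B cell receptor, were among the 5 under it on all. With the higher backgrounds neither CD79A nor CD22 was above on any array. By contrast all 8 measured red cell precursor markers were above background on every array. With the higher backgrounds AHSP and SLC4A1 were under on some arrays. GATA1, the erythroid master regulator, averaged 10.26 in PRMT5_down and 10.12 in control, KLF1 10.37 in PRMT5_down and 10.23 in control and TFRC 11.73 in PRMT5_down and 11.20 in control. Above background on all 6 arrays were also 2 of 5 megakaryocyte, 2 of 8 myeloid and 2 of 9 T and NK cell markers, among them ITGA2B at 6.22 in PRMT5_down and 6.31 in control, LYZ at 9.07 in PRMT5_down and 8.97 in control and CD3D at 7.48 in PRMT5_down and 7.52 in control. Of these, LYZ alone stayed above on all 6 arrays with the higher backgrounds.

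**Figure D4:**
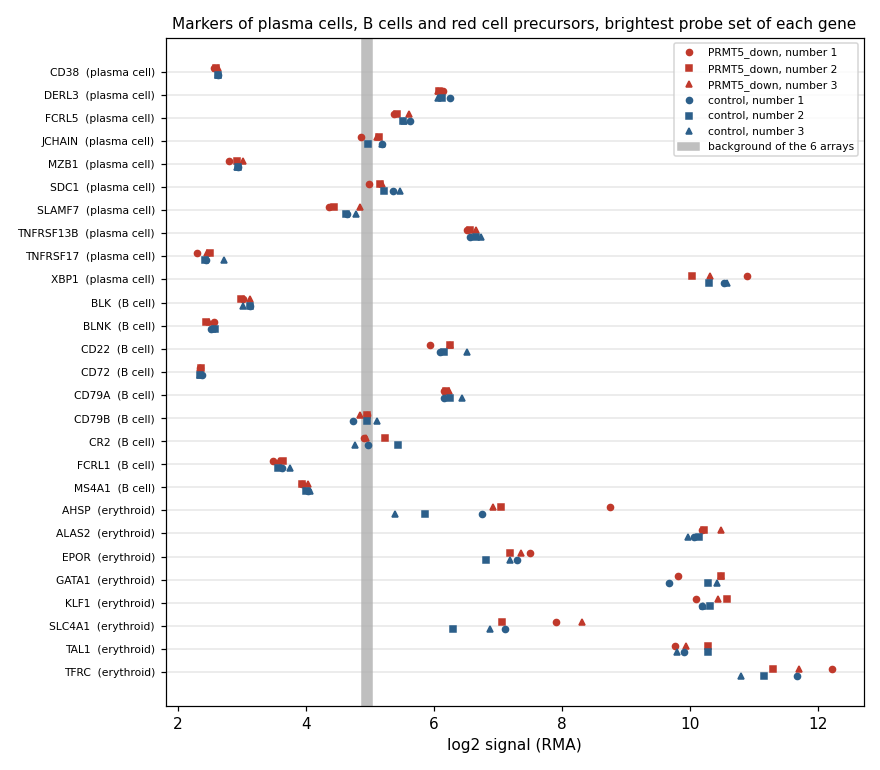
Log2 signal (x axis) of the brightest probe set of each plasma cell, B cell and erythroid marker (rows), PRMT5_down in red above control in blue, with background in grey. All 8 erythroid markers lie right of the band on every array, while CD38, TNFRSF17, MZB1, BLK, BLNK, CD72, FCRL1 and MS4A1 lie left of it.

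Between the groups all 8 erythroid markers had a higher mean in PRMT5_down, against 44.5% of all genes by their brightest probe set. The sizes were uneven and ran from 0.003 for TAL1 to 1.58 for AHSP. TAL1 differed by -0.14, 0.0 and 0.15 in replicate numbers 1, 2 and 3, and KLF1 by -0.09 in number 1. The median difference of the 8 was 0.24, and limma called 0 of the 8 as planned and 0 with the replicate block. The mean level of the list ran from 9.26 to 9.53 over PRMT5_down arrays and from 8.83 to 9.08 over control arrays. AHSP, the alpha globin chaperone, read 8.75, 7.04 and 6.92 in PRMT5_down replicates 1, 2 and 3, against 6.74, 5.85 and 5.39 in control replicates 1, 2 and 3. The groups did not overlap, and the mean difference was 1.58 (SE 0.58, and 0.14 with the replicate block), with 2.01, 1.19 and 1.53 in replicate numbers 1, 2 and 3. Its limma adjusted p was 1 as planned, 0.115 with the block and 0.0227 with the block, trend and robust, where it was called. SLC4A1, the red cell anion exchanger, differed by 1.00 (SE 0.36, and 0.14 with the block), with 0.80, 0.77 and 1.44 in replicate numbers 1, 2 and 3, and was not called in any of these 3 limma fits. All 10 plasma cell markers and all 9 B cell markers had a lower mean in PRMT5_down, with median differences of -0.07 and -0.05, against a median of -0.02 over the brightest probe sets of all genes. The marker lists, the erythroid one included, were chosen with earlier results of these data known. The plasma cell list averaged 5.08 to 5.18 over PRMT5_down arrays and 5.14 to 5.26 over control arrays, and the B cell list 4.14 to 4.22 over PRMT5_down arrays and 4.18 to 4.28 over control arrays. Most of these markers were near or under background, where a difference has no clear scale. The 10 regulators averaged 5.04 to 5.09 over PRMT5_down arrays and 4.99 to 5.14 over control arrays, and the part of lineage markers in their values was not tested.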

How the data were processed

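Per the submitters' processing notes, the deposited log2 values were made by the authors with RMA, which corrects background, evens out the distributions of all arrays and summarises probes into probe sets. Software version and chip definition: not given in the sources used here. The values have 2 decimals and were not transformed. The table has 49372 probe sets, of which 79 array controls were left out. Gene symbols came from the platform annotation, which named 1 gene for 44988 probe sets, several for 1832 and none for 2473, and updating them by gene identifier changed 0. With 6 arrays, their number limits the precision.

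The groups were compared over 49293 probe sets by lmFit and eBayes of limma 3.58.1 (R 4.3.3), with Benjamini-Hochberg adjustment over all of them and a threshold of 0.05. All p-values adjusted in this way come from limma. The functions were tested on simulated data. The brightest probe set of a gene had the highest mean over all 6 arrays. Differences are PRMT5_down minus control.

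Replicates are numbered 1 to 3 in both groups. Between same-numbered arrays, deviations from the group mean correlated at 0.81, 0.71 and 0.78, and the numbers were therefore treated as pairs, from the data and not from the labels. The planned fit has no block, and each SE is from it unless the block is named.

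The members and gene lists were chosen with earlier results of these data known. Named were all members, PRMT5 and, of each other list, up to 4 genes with the smallest p among those above background, with the highest and lowest of the marker lists. MYC and IRF3 were named beside that rule after their values were seen. Some listed genes are not analysed here. Promoter windows are those of RefSeq, GRCh38.p14. Alternatives tried were the replicate block, quantile normalization, other variance models, array weights, filters on dim probe sets, left-out arrays, and other backgrounds and probe set rules.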

Additional observations from a re-analysis of the deposited data

How the results depend on the processing

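Limma called 0 of the member probe sets under every setting run. Over all probe sets it called 0 in the planned fit, 0 once the replicate block was added and 6 when trend and robust variances joined that block, a setting added after the data were seen, in which the probe sets of PRMT5, at a log2 difference of -0.98 (adjusted p = 0.036), and of the erythroid marker AHSP, at 1.58 (adjusted p = 0.0227), were among those called; the cause was not tested. Unadjusted p-values under 0.05 numbered 466 as planned and 4221 with the block, among all probe sets, and 0 and 3 among those of the members. The pairing changed no call of a member. Among the brightest probe sets of the members, IKZF1, PAX5 and IRF8 kept their sign under all 14 alternatives, with ranges of 0.11 to 0.32, -0.17 to -0.04 and -0.30 to -0.10. Among the 14, the replicate block and the trend and robust fit return the planned difference by construction and could not turn a sign. The fits with arrays left out share most of their arrays, so the 14 are not separate checks. The sign of uncalled differences turned for the other 7 members under at least 1 setting each. After quantile normalization IRF4 was at 0.0078, POU2AF1 at 0.0033 and SPIB at 0.017. With array weights PRDM1 was at 0.0058, BCL6 at -0.043 and SPIB at 0.027. With the mean of probe sets PRDM1 was at 0.067 and IKZF3 at -0.0067. With the block and replicate number 3 left out IRF4 was at 0.005, IKZF3 at -0.015, BCL6 at -0.005 and SPIB at 0.02, without number 1 PRDM1 was at 0.065 and SPIB at 0.035, and without number 2 EBF1 was at -0.04. With 1 array left out in turn the ranges were -0.04 to 0.01 for IRF4, -0.083 to 0.023 for PRDM1, -0.025 to 0.155 for IKZF3, -0.0017 to 0.558 for BCL6, -0.067 to 0.028 for SPIB and -0.045 to 0.165 for EBF1. Members above background on all 6 arrays numbered 4 as planned and 3 under each other background or by the mean of probe sets. The F test between replicate numbers called 16522 probe sets and 17050 with trend and robust, and 7 of the members both ways. Only 3 arrays a group, and signals at background for 6 members, limit what could be seen.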
